A study of Bos taurus with 6 samples.

Results

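The genes described here are angiogenic ligands, their receptors and the thrombospondins, read in bovine granulosa cells given FGF8. They were chosen by name: VEGFA, VEGFB, VEGFC, ANGPT1, ANGPT2, THBS1, THBS2, KDR, NRP1 and ENG. Of these 10 genes, 9 had a probe under their symbol in the platform annotation, of 15214 named genes on the array, and THBS2 was not analysed here. The 9 genes were read by 12 probes, with 3 probes for NRP1 and 2 for VEGFA. A probe annotated ANG2 was not taken, because in the bovine gene names ANG2 is an angiogenin and not an older name of ANGPT2.

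The treated group was Holstein granulosa cells that received FGF8 at 10 ng/ml for 2 h, labelled as 2 h. The controls were untreated cells of the same kind, labelled as 0 h, so FGF8 and the additional 2 h in culture cannot be told apart. Cells of both groups came from follicles of 2 to 6 mm and were cultured for 5 days without serum, with FSH and insulin at 10 ng/ml each. There were 3 biological replicates, each with treated and control RNA on 2 arrays in exchanged dyes, 6 arrays in all; nothing in the labels says whether the replicates were separate animals or cultures, and p-values then measure only the spread between these 3 samples. RNA was amplified in 2 rounds before labelling.

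Granulosa cells line the follicle on the inner side of a basement membrane and have no blood vessels among them, while the theca outside is vascular. VEGF ligands act on endothelial cells through receptor tyrosine kinases such as KDR, with NRP1 as a coreceptor that also binds semaphorins. ANGPT1 activates the endothelial receptor TEK, and ANGPT2 can oppose it. Thrombospondins are secreted matrix proteins, of which THBS1 binds CD36 and CD47 and restrains vessel growth, and ENG is a coreceptor for TGF-beta family ligands on endothelial cells.

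Ratios below are FGF8-treated over control RNA on the log2 scale. A replicate's value is the mean of its 2 dye-swapped arrays, and a gene's value is the mean ± SD of 3 replicates. A probe counted as above background on an array when its median foreground intensity exceeded the 95th percentile of the 153 negative control spots in the same dye. That limit lay between 94 and 166.8 for treated RNA and between 119 and 173.2 for control RNA. Of the 12 probes, 11 passed the filter of at least 4 of 6 arrays above it in treated or in control RNA. The 2 arrays of replicate 2 agreed least. Across the 27210 kept probes they correlated at r = -0.107, against 0.474 in replicate 1 and 0.450 in replicate 3, so values without replicate 2 are also given. Between replicates the values hardly correlated in any pair. The r was 0.010 for replicates 1 and 2, -0.0099 for 1 and 3, and 0.110 for 2 and 3. Probes are not independent replicates, and these correlations are descriptions.

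None of the 9 genes passed the test. In limma, with Benjamini-Hochberg adjustment over all kept probes, 0 of 11 kept probes of these genes were called at an adjusted p under 0.05, where 1 of 27210 probes (0.00368%) was. At an unadjusted p under 0.05 there were 2 of 11 (THBS1 and the brightest NRP1 probe), where 4.94% of all kept probes were. A mean at least 1.5-fold higher in treated cells was found for 3 of 11 probes, those of THBS1, NRP1 and ANGPT1, where 0.93% of kept probes were that high. At least 1.5-fold lower values were found for 0 of 11, where 0.588% of kept probes were. The median over the 9 genes was 0.038, beside 0.0064 over all kept probes. With 3 replicates, the smallest p that an exact sign-flip permutation test can give is 0.25.

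THBS1 had the highest mean of the 9 genes and was the only one with higher values in treated RNA on all 6 arrays. Its spots had intensities of 18612 and 17541 in treated RNA, against 12075 and 10158 in control RNA, on the 2 arrays of replicate 1. In replicate 2 they had 11570 and 13702 in treated RNA, against 9183 and 9512 in control RNA. In replicate 3 they had 20304 and 16217 in treated RNA, against 6199 and 6305 in control RNA. Treated RNA was the brighter on each array, although the lowest treated and the highest control value came from different arrays and overlap. The THBS1 signal was 89.1 to 208 times the negative control limit in treated RNA and 41.9 to 75.5 times in control RNA, far above background.

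After normalization the THBS1 ratios were 0.49 and 0.70 in replicate 1, 0.37 and 0.45 in replicate 2 and 1.57 and 1.30 in replicate 3. All 3 replicates lay above 0, with means of 0.60, 0.41 and 1.44, and replicate 3 stood well above the others. The mean was 0.81 ± 0.55 (SD, n = 3), which is 1.76-fold, with a 95% interval of 0.30 to 1.33. The unadjusted limma p was 0.00788 and the adjusted limma p 0.856. A sign higher on all 6 arrays was found for 3.34% of kept probes. The 3 arrays that carried treated RNA in Cy5 averaged 0.81 and those that carried it in Cy3 averaged 0.82, so the dye orientation moved it little. It was 1.02 without replicate 2 and 0.50 without replicate 3.

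**Figure D1:**
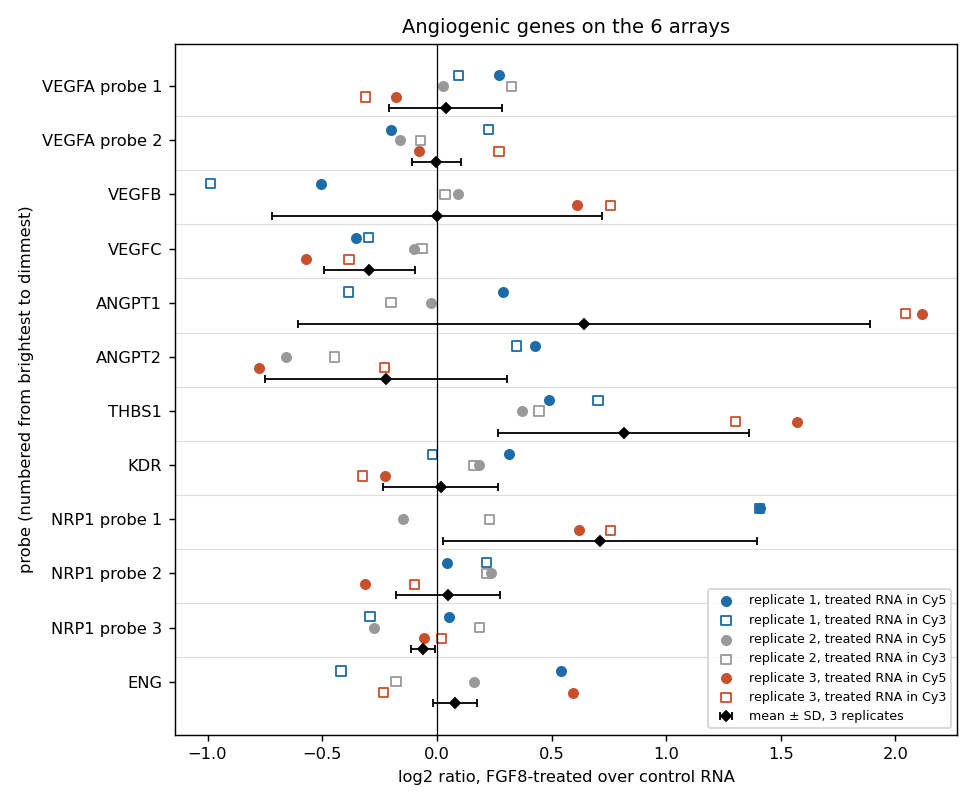
Log2 ratios of FGF8-treated over control RNA for the 12 probes, one point per array, coloured by replicate, filled where treated RNA carried Cy5 and open where it carried Cy3. Black diamonds and bars are the mean ± SD of the 3 replicates. THBS1 lies above 0 and VEGFC below 0 on all 6 arrays, ANGPT1 is far above 0 in replicate 3 alone, and VEGFB runs from below 0 in replicate 1 to above 0 in replicate 3.

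Among the VEGF ligands, VEGFC, which acts mainly on lymphatic endothelium, was lower in treated RNA on all 6 arrays by a small amount. Its ratios were -0.35 and -0.30 in replicate 1, -0.10 and -0.06 in replicate 2 and -0.57 and -0.38 in replicate 3. The mean was -0.29 ± 0.20 (SD, n = 3), which is 1.23-fold lower, with a 95% interval of -0.63 to 0.04 and an adjusted limma p of 0.856. After normalization the sign held in every array and replicate, and 2.5% of kept probes were lower on all 6 arrays. Before normalization, the replicate 2 array with treated RNA in Cy3 had an intensity of 1440 in treated RNA, against 1267 in control RNA. Without replicate 2 the mean was -0.40. The probe was clear of background, at 5.78 to 11.4 times the limit in treated RNA and 5.96 to 10.1 times in control RNA.

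VEGFB, a ligand of FLT1, averaged near 0 because the replicates opposed each other. Its ratios were -0.51 and -0.99 in replicate 1, 0.09 and 0.04 in replicate 2 and 0.61 and 0.76 in replicate 3. Within each replicate both dye orientations had the same sign, and between replicates the sign differed. On the arrays of replicate 1 the spot intensities were 807 and 670 in treated RNA, against 1224 and 1087 in control RNA. On those of replicate 3 they were 1341 and 1940 in treated RNA, against 917 and 999 in control RNA. Before normalization, the control intensities of these 2 replicates were closer to each other than the treated ones. The mean was 0.00040 ± 0.72 (SD, n = 3), with a 95% interval of -0.63 to 0.63 and an adjusted limma p of 1.00. Going by the names of the arrays, the arrays of replicate 1 were on 2 slides and those of replicates 2 and 3 each on a single slide. The mean without replicate 1 was 0.37.

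VEGFA, the main VEGF ligand of the follicle and the one that drives vessel growth in the theca and corpus luteum, showed no difference past the replicate spread. The brighter probe had ratios of 0.27 and 0.10 in replicate 1, 0.03 and 0.32 in replicate 2 and -0.18 and -0.31 in replicate 3. Replicates 1 and 2 were above 0 and replicate 3 below it, with a mean of 0.04 ± 0.25 (SD, n = 3) and an adjusted limma p of 0.972. The 95% interval, -0.32 to 0.39, corresponds to 0.803-fold to 1.31-fold. The dimmer probe averaged -0.0018 ± 0.11 (SD, n = 3), but it was near the detection limit, at 0.906 to 1.35 times it in treated RNA and 0.977 to 1.23 times in control RNA, and above it on 5 of 6 arrays in each. The brighter probe was at 1.62 to 2.42 times the limit in treated RNA and 1.66 to 2.14 times in control RNA.

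ANGPT1, the activating ligand of TEK, was high in the treated RNA of replicate 3 alone. There its spots had intensities of 756 and 770 in treated RNA, against 218 and 192 in control RNA. In replicates 1 and 2 they had 167 to 237 in treated RNA, against 170 to 322 in control RNA. The treated value of replicate 3 stood at 7.76 and 8.19 times the negative control limit, while the other 4 treated values were at 1.22 to 1.85 times. The ratios were 0.29 and -0.38 in replicate 1, -0.02 and -0.20 in replicate 2 and 2.12 and 2.04 in replicate 3. Both dye orientations of replicate 3 were high, and the other replicates lay around 0. The mean was 0.64 ± 1.25 (SD, n = 3), with a 95% interval of -0.36 to 1.64 and an adjusted limma p of 0.856. It was -0.08 without replicate 3, so this 1 replicate sets its sign, and 1.02 without replicate 2.

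ANGPT2, which can block the action of ANGPT1 on TEK, differed in sign between replicates. Its ratios were 0.43 and 0.35 in replicate 1, -0.66 and -0.45 in replicate 2 and -0.78 and -0.23 in replicate 3. Replicate 1 was above 0 on both arrays and the others below 0 on both. The mean was -0.22 ± 0.53 (SD, n = 3), with a 95% interval of -0.73 to 0.28 and an adjusted limma p of 0.882. It was -0.53 without replicate 1 and -0.06 without replicate 2. In replicate 3, where ANGPT1 was at 2.08, ANGPT2 was at -0.50.

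**Figure D2:**
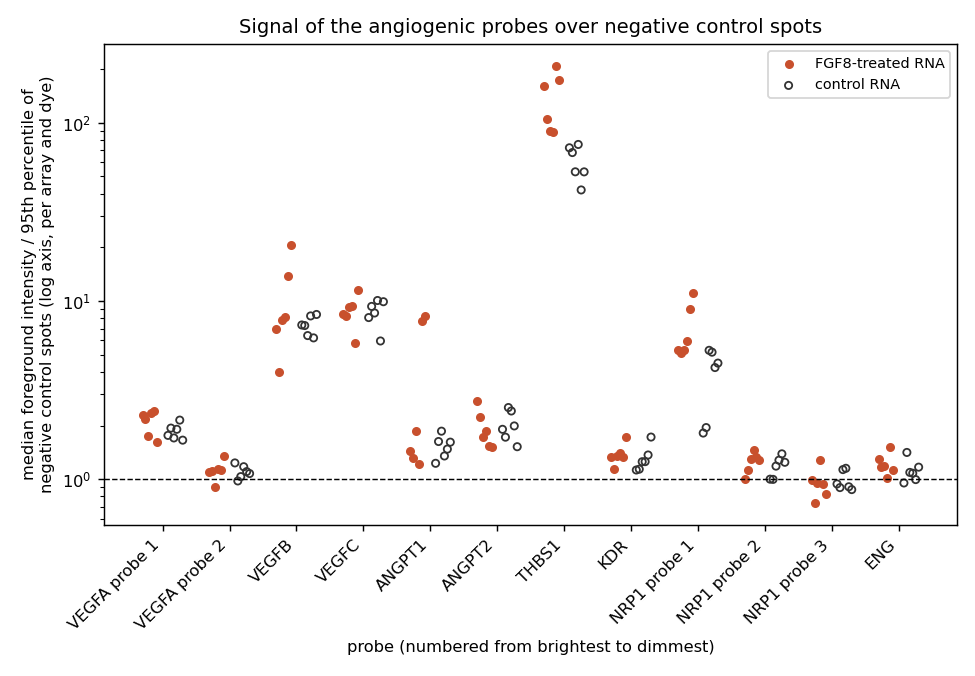
Median foreground intensity of the 12 probes divided by the 95th percentile of the negative control spots of the same array and dye, on a log axis, with 6 filled points for FGF8-treated RNA left of 6 open points for control RNA. The dashed line marks the limit. THBS1 is far above it, and KDR, ENG, the dimmer VEGFA probe and the dimmer NRP1 probes lie close to it.

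NRP1, the coreceptor of VEGF and of class 3 semaphorins, was higher in treated RNA on its brightest probe and near 0 on its dim ones. The brightest probe had ratios of 1.41 and 1.41 in replicate 1, -0.15 and 0.23 in replicate 2 and 0.62 and 0.76 in replicate 3. In replicate 1 its intensities were 614 and 854 in treated RNA, against 303 and 291 in control RNA. In replicate 2 they were 680 and 917 in treated RNA, against 915 and 650 in control RNA. In replicate 3 they were 879 and 1040 in treated RNA, against 625 and 533 in control RNA. Treated RNA was brighter on 5 of 6 arrays, and the control RNA was dimmest in replicate 1. The mean was 0.71 ± 0.68 (SD, n = 3), which is 1.64-fold, with a 95% interval of 0.11 to 1.32. The unadjusted limma p was 0.0276 and the adjusted limma p 0.856. Without replicate 2 the mean was 1.05, and without replicate 1, whose arrays were on 2 slides, it was 0.36.

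The other NRP1 probes gave no such difference. The second averaged 0.05 ± 0.23 (SD, n = 3; adjusted limma p 0.964) and stood at 1.01 to 1.46 times the negative control limit in treated RNA and 0.997 to 1.39 times in control RNA. The third averaged -0.06 and did not pass the filter, being above the limit on 1 of 6 arrays in treated RNA and 2 of 6 in control RNA. The 3 probes of NRP1 thus disagree, and the mean of the 2 kept ones was 0.38. The brightest probe was at 5.12 to 11.1 times the limit in treated RNA and 1.81 to 5.28 times in control RNA. The sources used here do not say which part of the transcript each probe covers.

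KDR, the main signalling receptor for VEGFA, was read just above background and showed no difference past the replicate spread. Its ratios were 0.32 and -0.02 in replicate 1, 0.19 and 0.16 in replicate 2 and -0.22 and -0.32 in replicate 3. Replicates 1 and 2 averaged above 0 and replicate 3 below it, for a mean of 0.02 ± 0.25 (SD, n = 3) and an adjusted limma p of 0.988. The 95% interval was -0.34 to 0.37. The signal was 1.13 to 1.72 times the limit in treated RNA and also 1.13 to 1.72 times in control RNA, close to the limit of detection.

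ENG had a ratio that followed the dye. Where Cy5 marked the treated RNA it was 0.54, 0.16 and 0.60 in replicates 1, 2 and 3, and where Cy3 marked it the values were -0.42, -0.18 and -0.23. The normalized Cy5 over Cy3 ratio was thus above 0 on every array, whichever RNA carried Cy5. Its Cy5 over Cy3 log2 ratio was 0.35 (adjusted limma p 0.0326), and a dye effect was called for 8.24% of kept probes and for no other probe of these genes. The mean over both orientations was 0.08 ± 0.10 (SD, n = 3), with a 95% interval of -0.23 to 0.39 and an adjusted limma p of 0.936. The signal was 1.01 to 1.52 times the limit in treated RNA and 0.952 to 1.41 times in control RNA.

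**Figure D3:**
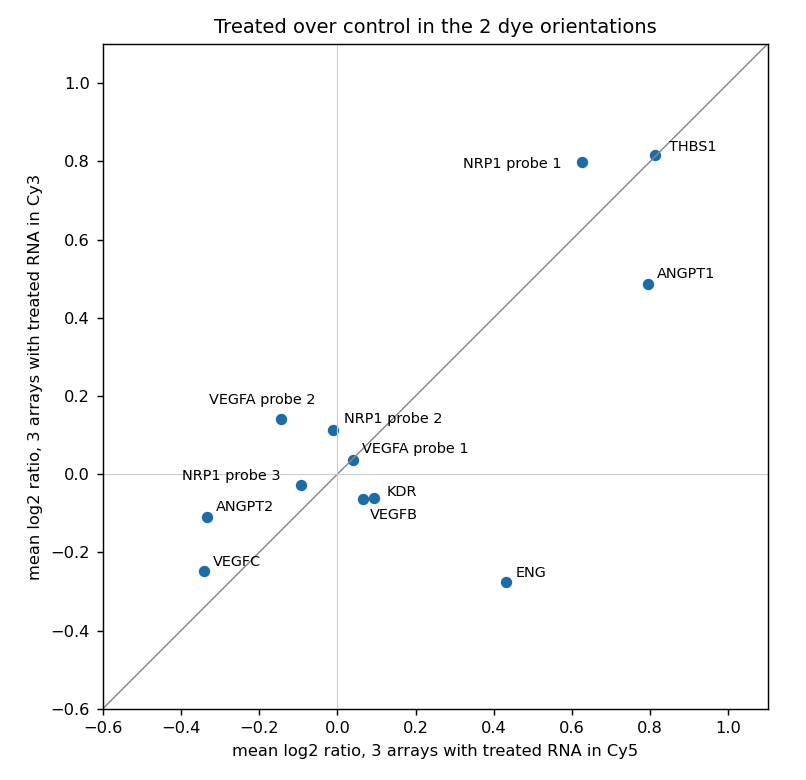
Mean log2 ratio of FGF8-treated over control RNA of each probe where the treated RNA carried Cy5 (horizontal, 3 arrays) and where it carried Cy3 (vertical, 3 arrays); the diagonal marks equal values. THBS1 lies on the diagonal at 0.81 and 0.82, while ENG lies at 0.43 and -0.28.

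Other genes of angiogenesis were read from a list of 63, of which 61 had a probe and 42 a kept probe. Of these 42, 0 rose, 0 fell and 42 did not pass in limma, where 0.00368% of kept probes were called. An unadjusted limma p under 0.05 was found for 4 of the 42, where 4.94% of kept probes had it. The median of the 42 genes was 0.016, beside 0.0064 over all kept probes. Means were above 0 for 24 of these genes and below 0 for 18. ADAMTS1, a protease that cleaves matrix proteoglycans and thrombospondins, had the highest mean, 1.32 ± 0.26 (SD, n = 3), with replicate values of 1.61, 1.13 and 1.22 and an adjusted limma p of 0.287. CCN2, a matricellular protein, was higher on all 6 arrays too, with replicate values of 0.44, 1.38 and 1.85. CCN1, its relative and an angiogenic inducer, had 0.21, 0.74 and 1.66. These genes and THBS1 code for secreted proteins of the matrix, but others of that kind stood lower. SPARC averaged -0.10 and COL4A3 0.0046, the COL4A3 probe being dim, at a mean log2 intensity of 7.4. The group of matrix inhibitors and proteases, ADAMTS1 included, had a median of 0.0050, with 4 of 6 genes above 0. CCN1, CCN2 and THBS1 each had their highest replicate value in replicate 3. Over all kept probes the SD was also largest there, at 0.444, against 0.371 in replicate 1 and 0.225 in replicate 2. JAG1, a Notch ligand, averaged 0.46 ± 0.74 and FGF2, an angiogenic growth factor, 0.35 ± 0.73 (SD, n = 3 each), and other kept probes of both were lower, at 0.29 and 0.08 for JAG1 and 0.0094 for FGF2.

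On the side of lower values, ID3, a BMP target gene whose product blocks helix-loop-helix transcription factors, stood at -0.70 ± 0.24 (SD, n = 3). It was lower on all 6 arrays, and its other 4 probes averaged -0.26 to -0.39. EPHB4, the venous receptor for ephrin B2, had replicate values of -0.56, 0.15 and -1.15, and NOTCH1, a receptor of JAG1, had -0.42, 0.06 and -0.77. SERPINF1, an inhibitor of vessel growth, averaged -0.30 ± 0.53 and the thrombospondin THBS3 -0.19 ± 0.36 (SD, n = 3 each). All 10 genes named from the list had adjusted limma p-values of 0.287 to 0.876.

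Among the partners of the main genes, PGF averaged -0.02 and FLT4, the receptor of VEGFC, -0.15, while FLT1, NRP2 and VEGFD did not pass the filter. TEK, the receptor of both angiopoietins, averaged 0.12, and TIE1 did not pass. The thrombospondin receptors CD36 and CD47 averaged -0.05 and 0.03 on their brightest probes. CD36 had -0.79, 0.20 and 0.46 in the 3 replicates, and a dye effect was called for this probe. Its Cy5 over Cy3 log2 ratio was -0.34 (adjusted limma p 0.0362). The remaining kept probes averaged -0.24 and -0.11 for CD36 and 0.11 and 0.16 for CD47. The CD36 probe at -0.24 also had a called dye effect, of -0.35 (adjusted limma p 0.0295). The hypoxia genes that passed the filter, HIF1A, EGLN3 and EGLN1, stood at 0.19, 0.20 and 0.35 on their brightest probes. In replicates 1, 2 and 3, HIF1A had 0.69, -0.09 and -0.05 and EGLN3 had 0.53, 0.05 and 0.02. Other kept probes averaged 0.36 and 0.31 for HIF1A and 0.14 for EGLN1. HIF1A drives VEGFA transcription, and EGLN proteins mark HIF1A for destruction. TGFBR2, which signals with ENG, was at 0.26 on its brightest probe and -0.17 on its other kept probe. ACVRL1 did not pass the filter. The genes of this paragraph fall outside the rule for named genes and were chosen after their values were seen, as partners of the main genes.

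**Figure D4:**
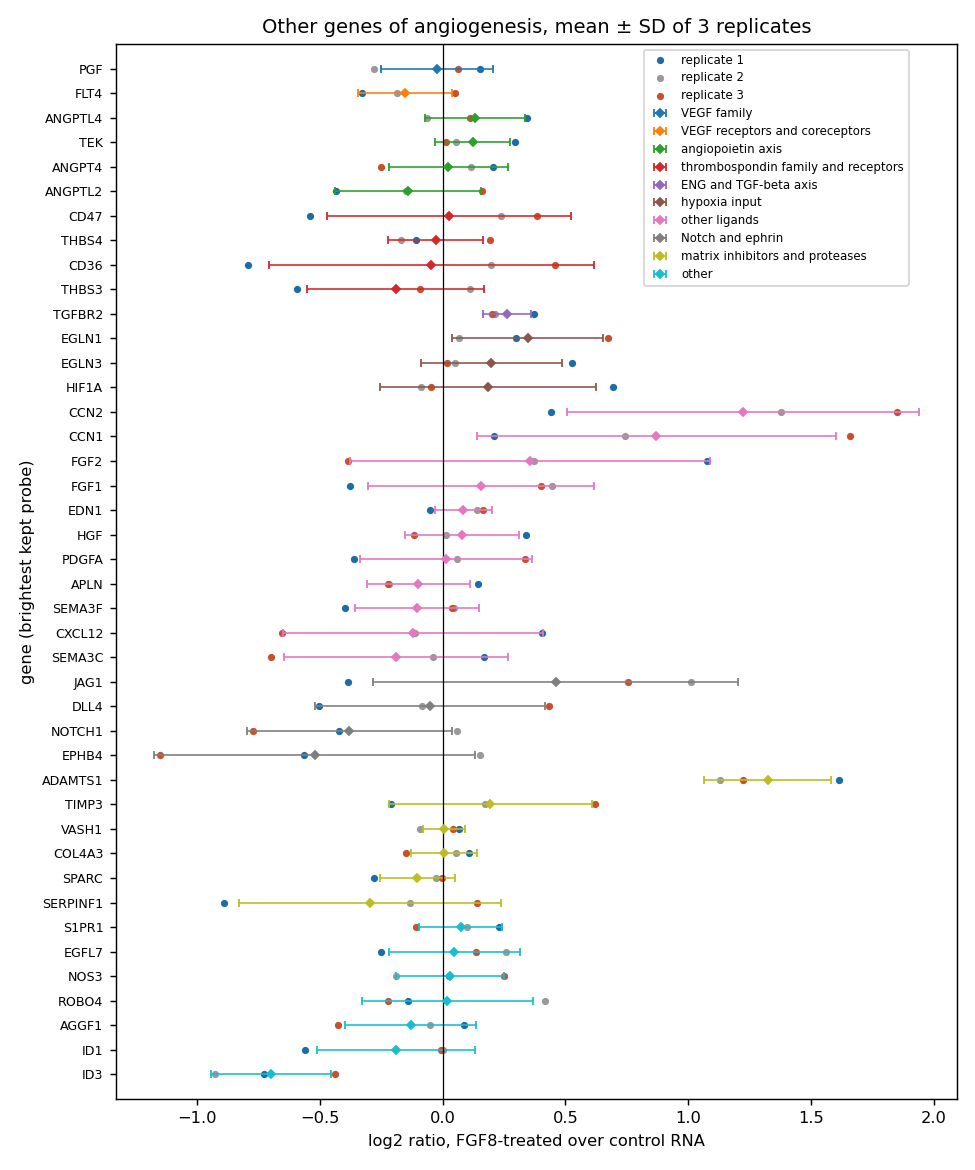
Log2 ratio of FGF8-treated over control RNA for the 42 other angiogenesis genes with a kept probe, by role, as mean ± SD of 3 replicates (diamonds and bars) with the replicate values as points. ADAMTS1 lies at 1.32 with all replicates above 1, and most bars cross 0.

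Markers of cell types were read in the same RNA. Granulosa markers passed the filter for 8 of 10 genes, and FOXL2 and HSD17B1 did not pass. The summed background-subtracted intensities of the granulosa list were 82722 to 126940.5 in treated RNA and 80691 to 105373 in control RNA over the replicates. INHBA was the brightest, at a mean log2 intensity of 15.6, while FSHR, AMH and CYP19A1 stood at 7.9, 7.9 and 8.3 on their brightest probes. Endothelial markers passed for 8 of 12, with sums of 1301 to 1965 in treated RNA and 1774.5 to 1968 in control RNA. PECAM1 and FLT1 were above the limit on no array, and the passing probes had mean log2 intensities of only 7.1 to 7.6. Of all probes on the array, 27210 of 43794 passed the filter, so a passing count alone says little of a cell type. Theca and stroma markers passed for 9 of 10, with sums of 59776 to 66385.5 in treated RNA and 54390 to 66163 in control RNA. CYP17A1, which defines theca cells, did not pass. INSL3, of the same list, did, above the limit on 5 of 6 arrays in treated RNA and 4 of 6 in control RNA. The brightest probes of PDGFRA, COL3A1, ACTA2, DCN and COL1A2 had mean log2 intensities of 14.3, 14.1, 13.0, 12.8 and 12.4. Each was above the limit on all 6 arrays in both RNAs. COL1A1, MYH11 and PDGFRB stood at 7.9, 7.5 and 7.1. Leukocyte and blood markers passed for 6 of 8, with sums of 2446 to 3116 in treated RNA and 2482.5 to 3781 in control RNA. Oocyte markers passed for 2 of 4, with sums of 533.5 to 830 in treated RNA and 766 to 900 in control RNA. KDR is itself among the endothelial markers, whose median ratio was 0.07. The part of any of these cell types in the ratios of THBS1, NRP1 and ANGPT1 was not tested. In a bulk RNA sample, fewer cells of a type and less RNA per cell cannot be told apart. Early FGF response genes were also read. They were chosen with earlier results of these data known and cannot separate FGF8 from the additional 2 h, so they are no independent check of the treatment. Of the 5 kept genes, 4 were higher on all 6 arrays, where 3.34% of kept probes were, and the median was 1.30. A second, dimmer kept probe of FOS averaged -0.11 and was higher on 3 of 6 arrays. Of these 5 genes 0 passed in limma, the smallest adjusted p being 0.150. An unadjusted limma p under 0.05 was found for 4 of them, where 4.94% of kept probes had it. The fifth, DUSP6, an ERK phosphatase, was at -0.19, 0.17 and 2.10 in replicates 1, 2 and 3.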

How the data were processed

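Per the labels' protocols, total RNA was isolated with a column kit, amplified over 2 rounds by T7 RNA polymerase, and labelled chemically with Cy3 or Cy5. The deposited scanner tables give, per the file headers, raw median foreground and background intensity of each spot. The authors' deposited table holds log2 ratios; how they were made is not given in the sources. Set against the scanner values after background subtraction and loess, its 6 columns correlated at 1.00 with slopes of 1.00, as treated over control RNA on every array. Its medians per array were 0.0025, 0.0030, 0.0018, -0.00085, 0.0063 and 0.0067.

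The 143 probes marked as ignored were left out, and 27210 of 43794 probes passed the filter. The 2 arrays of a replicate were averaged, and the 3 values entered a two-sided limma test against 0 (lmFit and eBayes, limma 3.58.1, R 4.3.3) with Benjamini-Hochberg adjustment and a threshold of 0.05. Intervals come from the same fit. The fit was tested on simulated data. The same fit on Cy5 over Cy3 tested dye effects. Precision is limited by the number of arrays.

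Symbols were taken from the platform annotation (1 symbol for 21790 probes, several for 0), updated through RefSeq names: 20068 were current, 1644 were updated and 78 kept as annotated. A gene was represented by its brightest kept probe. Replicate numbers pair treated and control RNA, which were hybridised together. Their deviations correlated at 0.108, 0.403 and 0.387 within numbers and -0.354 to 0.125 across. Within a number both RNAs were read on the same arrays, so these values cannot tell paired samples from shared arrays. For replicate 1 the value within, 0.108, was below that of its treated RNA with the control RNA of replicate 2, 0.125. The genes and lists were chosen with earlier results of these data known. Of the list of 63, those named first were past the threshold, of 1 sign on all 6 arrays, or among the 5 highest or 5 lowest means. Alternatives covered background correction, centring, scaling, filters, dye orientation, slide, blocks, variance model and replicates left out.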

Additional observations from a re-analysis of the deposited data

Results flagged for a closer look

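ENG had a Cy5 over Cy3 log2 ratio of 0.35 (adjusted limma p 0.0326), so its treated over control ratio differed between the 2 dye orientations: 0.43 where treated RNA carried Cy5 and -0.28 where it carried Cy3. All 3 arrays of the first orientation were above 0 and all 3 of the second below it. A dye effect cancels in the mean over both orientations.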

How the results depend on the processing

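No probe of the 9 genes was called under any of the 15 refitted alternatives, and their counts of 0 came from limma, with 2 of 11 at an unadjusted p under 0.05 in the reported fit. THBS1, NRP1 (brightest probe), VEGFC and ANGPT2 kept their sign in all of them, and ANGPT1 in all but 1. Adjusted limma p-values of THBS1 ran from 0.156 to 0.991. Over all probes 1 was called, the unnamed probe EMBV3_13476; 0 were called after normexp with loess and 0 after normexp with median centring, 10 with treated RNA in Cy5 alone, 15 with all 6 arrays and the replicate block, 19 with 6 arrays and no replicate block, and 0 to 1 with a replicate left out (0 without replicate 2). In the angiogenesis list, ADAMTS1 alone was called, 1 gene both with the replicate block and without it on 6 arrays; both count arrays, not replicates, as the residual units. The dye effect of ENG was called for 0 probes after normexp with loess, under the strict filter, which leaves ENG out, and on 6 arrays with no replicate block, and for 0 to 1 with a replicate left out (0 without replicates 1 and 3). The cause of these differences was not tested.

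Changes of sign concerned VEGFA, VEGFB, KDR, ENG, ANGPT1, the second NRP1 probe and 3 genes of the list. With treated RNA in Cy3 alone, the dimmer VEGFA probe was at 0.14, VEGFB at -0.0644, KDR at -0.0602 and ENG at -0.28, and with treated RNA in Cy5 alone the second NRP1 probe was at -0.0118. VEGFB was at -0.00014 from the scanner tables by subtraction and loess, at -0.0281 after scaling the arrays and at -0.19 with the slide set as a term, where the dimmer VEGFA probe was at 0.0019. The second NRP1 probe was at -0.0061 after median centring. With each replicate left out in turn, the ranges that crossed 0 were -0.0341 to 0.18 for VEGFA (dimmer probe -0.0515 to 0.0554), -0.34 to 0.37 for VEGFB, -0.0791 to 1.02 for ANGPT1, -0.0625 to 0.16 for KDR, -0.0374 to 0.18 for the second NRP1 probe, -0.51 to 0.0022 for SERPINF1, -0.34 to 0.0083 for THBS3 and -0.0061 to 0.73 for FGF2. Probes close to the negative control limit (KDR, ENG, the dimmer VEGFA and NRP1 probes) allow little to be said of small changes. The same holds for FLT4, TEK, COL4A3 and SERPINF1. Their mean log2 intensities were 7.3, 7.5, 7.4 and 7.3, beside 7.5 for KDR.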
